A study of Mus musculus with 8 samples.

Results

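The transcription factors that give lung epithelium its identity were followed in whole lungs of newborn mice labelled as carrying a single intact copy of Fgf10. The set held 10 genes, Nkx2-1, Foxa1, Foxa2, Cebpa, Elf5, Irx3, Irx2, Gata6, Sox9 and Sox2. It was taken by gene symbol from 20842 genes named on the array, and all 10 were measured. The genes were chosen with their values in this same comparison known, so their differences between the groups are given as a description, with no test. RNA of 8 lungs was hybridised to 1-colour Agilent arrays, 4 from pups labelled Fgf10+/- and 4 from wild-type pups. Both groups had the C57Bl/6J background, and all pups were kept in a chamber at 20% oxygen between postnatal days 0 and 3. The labels name neither the disrupted allele nor the sex or litter of the pups, and they describe the samples of a group as independent.

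Lung mesenchyme secretes FGF10, and the epithelium receives it through its receptor FGFR2. As background, NKX2-1 is the homeodomain factor that sets lung and thyroid fate in the foregut, and FOXA1 and FOXA2 are forkhead factors that open chromatin for it. CEBPA acts later, in the maturation of alveolar type 2 cells, which make surfactant. ELF5, an ETS factor, and SOX9 mark the distal tips of the branching tree, and SOX2 marks the airway. IRX2 and IRX3 are Iroquois homeodomain factors, and GATA6 is a zinc finger factor of both epithelium and mesenchyme.

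Values are log2 signals that were brought to a common distribution on all arrays, with a median of 3.47 over all features. A value near that median is close to the floor. Fgf10 itself, averaged over its 10 features, was at 7.29, 7.77, 7.46 and 7.69 in replicates 1 to 4 of the libraries labelled Fgf10+/-, against 7.16, 7.35, 7.00 and 7.47 in the wild-type libraries. The groups overlapped, and the signal was not lower where the label says that a copy is disrupted. Of the 10 features 0 had a lower mean there. Their differences ran from 0.07 to 0.49, with a mean of 0.31. The positions of the Fgf10 features relative to the targeted segment are not known here, and each direction below rests on the labels. Wild-type replicate 4 stood apart. Its mean deviation was 3.42 for cartilage markers and 2.82 for skeletal muscle markers, where the other 7 libraries were at most -0.44 and -0.24. Results are therefore also given without it where it bears on them.

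All 10 factors had a lower mean in the libraries labelled Fgf10+/-. The log2 differences ran from -0.93 for Elf5 to -0.07 for Sox9, with a median of -0.60, while the median over all 20842 genes was -0.00 and 50.2% of them had a lower mean. In the other direction the groups were apart for 0 of the 10, against 2.99% of all genes. For 6 factors, Nkx2-1, Foxa1, Foxa2, Cebpa, Elf5 and Irx3, all 4 values in the libraries labelled Fgf10+/- lay below all 4 wild-type values. This held for 4.40% of all genes, a share given only as background, since the factors were chosen on this comparison. Without wild-type replicate 4 the count was 7 of 10, against 7.68% of all genes. These are whole lungs, so fewer epithelial cells and less RNA per cell cannot be told apart.

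**Figure D1:**
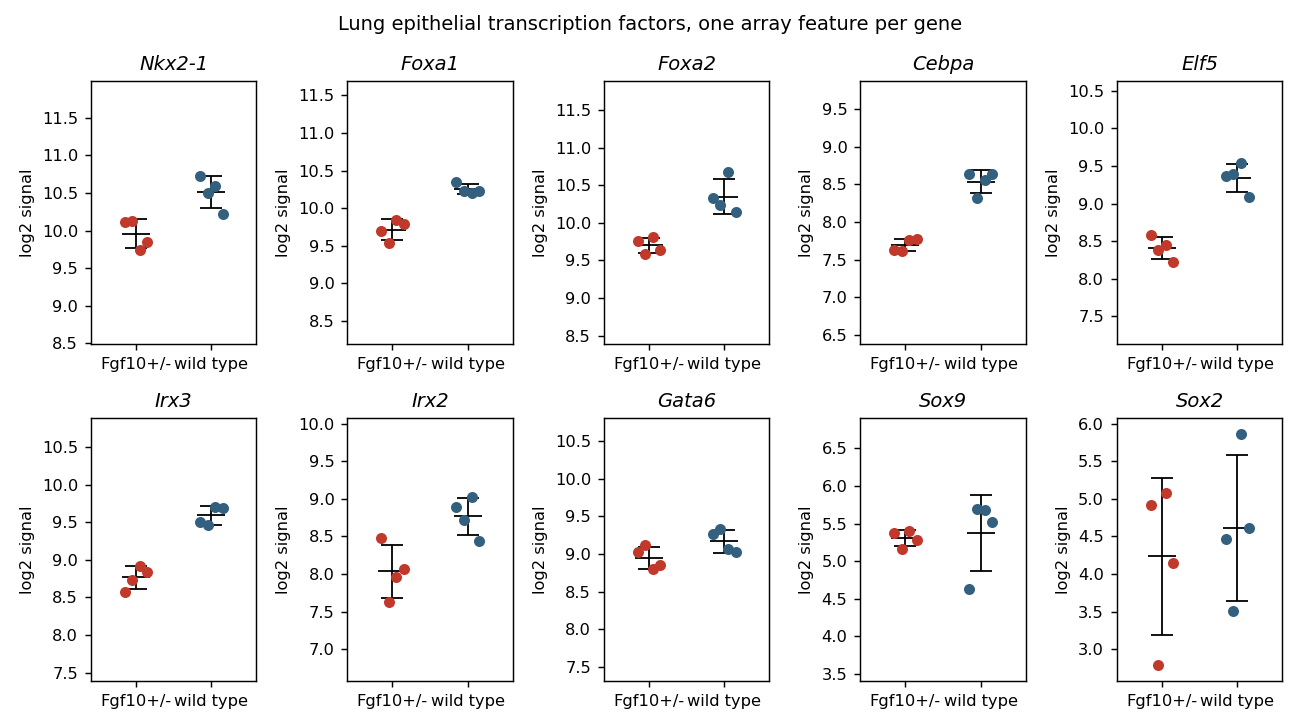
Log2 signal of the feature that stands for each of the 10 factors, in the 4 libraries labelled Fgf10+/- (left, red) and the 4 wild-type libraries (right, blue). Points are libraries, bars are the mean ± SD, and every panel spans 3.5 log2 units. The groups are apart for Nkx2-1, Foxa1, Foxa2, Cebpa, Elf5 and Irx3, and overlap for Irx2, Gata6, Sox9 and Sox2.

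Nkx2-1, the factor on which the rest of the lung programme depends, had a signal of 10.12, 10.13, 9.75 and 9.85 in replicates 1 to 4 of the libraries labelled Fgf10+/-. In the wild-type libraries it was 10.73, 10.50, 10.59 and 10.22. The highest value of the first group lay 0.09 below the lowest wild-type value, that of replicate 4. The log2 difference was -0.55 with a standard error of 0.15, or -0.64 without wild-type replicate 4. On a linear scale this is 0.68 of the wild-type signal.

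The array held 10 features for Nkx2-1, and they gave the same order of the groups each time. All 10 had a lower mean in the libraries labelled Fgf10+/-, by -0.73 to -0.55, and in 10 of 10 the groups did not overlap. The feature with the highest signal, which stood for the gene, had the smallest difference. Averaged over the 10 features, the signal was 9.60 ± 0.12 in the libraries labelled Fgf10+/- and 10.24 ± 0.18 in the wild-type libraries (SD, n = 4 each). On a single array the 10 features had an SD of 0.18 to 0.27. They read the same 8 RNAs, so they bear on the error of the array and not on that between pups.

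Foxa1, the forkhead partner of Nkx2-1 in the epithelium, had 9.70, 9.53, 9.84 and 9.79 in the libraries labelled Fgf10+/-, against 10.35, 10.23, 10.20 and 10.23 in the wild-type libraries. The wild-type values were the most even of all 8 brighter factors, with an SD of 0.07. A gap of 0.36 separated the groups, and the difference was -0.54 (standard error 0.11).

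Foxa2, its close relative, was measured by 2 features. On the brighter one it had 9.76, 9.59, 9.81 and 9.64 in the libraries labelled Fgf10+/-, against 10.33, 10.24, 10.68 and 10.14 in the wild-type libraries, a difference of -0.65 with a standard error of 0.14. On the dimmer feature the difference was -1.06, with 6.81, 6.31, 7.01 and 6.84 in the libraries labelled Fgf10+/-, against 8.11, 7.74, 8.10 and 7.28 in the wild-type libraries. The groups were apart on both features, but the size of the difference depended on which was read.

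Because these 3 core factors all had lower means, the bases before their starts were searched for short strings linked to factors of the set. The windows are the 250 bases before a start in RefSeq's GRCm38.p6 annotation, written 5′ to 3′ on the strand of the gene. Those of 8 of the 10 factors were searched, and Gata6 was left out of the search. Capitals mark every match, on either strand, to TCAAG for NKX2-1, TGTTTAC for the FOXA factors, AGATAA for GATA6, ACAAAG for the SOX factors, GGAAG for ELF5 and other ETS factors, ACATGT for the IRX factors or TTGCNNCAA for CEBPA. Foxa2 has several windows, and the one farthest upstream is shown.
Nkx2-1 promoter, chr12:56536909-56537158, minus strand: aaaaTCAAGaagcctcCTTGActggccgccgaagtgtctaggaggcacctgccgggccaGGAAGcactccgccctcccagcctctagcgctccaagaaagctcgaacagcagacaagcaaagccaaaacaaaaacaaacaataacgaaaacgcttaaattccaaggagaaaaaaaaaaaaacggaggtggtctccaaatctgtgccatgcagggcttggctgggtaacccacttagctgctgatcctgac
Foxa1 promoter, chr12:57546112-57546361, minus strand: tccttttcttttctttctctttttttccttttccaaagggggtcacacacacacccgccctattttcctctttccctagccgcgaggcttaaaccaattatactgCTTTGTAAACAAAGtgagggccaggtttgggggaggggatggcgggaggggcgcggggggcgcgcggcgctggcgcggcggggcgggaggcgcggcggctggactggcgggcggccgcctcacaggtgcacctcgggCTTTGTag
Foxa2 promoter, chr2:148046970-148047219, minus strand: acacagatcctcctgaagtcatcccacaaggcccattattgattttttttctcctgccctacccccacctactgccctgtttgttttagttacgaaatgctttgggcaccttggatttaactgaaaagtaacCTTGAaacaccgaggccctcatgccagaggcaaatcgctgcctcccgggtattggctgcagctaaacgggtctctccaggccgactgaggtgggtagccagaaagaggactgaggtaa

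The Nkx2-1 window held TCAAG on both strands, near its upstream end, and GGAAG farther in. TCAAG is short and stood in 35.9% of all 32851 windows. The Foxa1 window held TGTTTAC, read on the opposite strand at positions -141 to -135 from the start, and a copy of ACAAAG overlapped it on either side. Another ACAAAG lay at -8 to -3. TGTTTAC stood in 3.17% of all windows and ACAAAG in 16.5%. In the Foxa2 window only TCAAG was found, on the opposite strand. Across the 11 windows of the set TGTTTAC was in 1, TCAAG in 3, ACAAAG in 3, AGATAA in 1 and GGAAG in 6, while the last stood in 64.1% of all windows. ACATGT and TTGCNNCAA were in 0 of the 11, and in 4.58% and 1.74% of all windows. For TTGCNNCAA these counts leave CEBPA sites unexamined, since the string cannot match the palindromic one. A match says only that the letters are there, and its absence only that they are not in this window.

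On the features that stood for the genes, Cebpa and Elf5 had larger differences than the core factors. The dimmer Foxa2 feature, at -1.06, exceeded both. Cebpa, a leucine zipper factor of maturing alveolar type 2 cells, had 7.63, 7.61, 7.76 and 7.77 in the libraries labelled Fgf10+/-, against 8.64, 8.31, 8.55 and 8.64 in the wild-type libraries. The difference was -0.84 with a standard error of 0.11, or 0.56 of the wild-type signal, and the groups lay 0.54 apart. With each replicate left out in turn it stayed between -0.92 and -0.81.

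CEBPA is also a factor of fat cells and macrophages, whose markers were uneven between libraries. The mean deviation of 10 fat markers was 1.35 in wild-type replicate 4, where it was at most 0.02 in the other 7 libraries. Cebpa stood at 8.64 there. That of 8 macrophage markers was -0.75 to 0.35 in the libraries labelled Fgf10+/- and -0.18 to 0.30 in the wild-type libraries. The library at -0.75 was replicate 4, where Cebpa stood at 7.77. The part of fat cells and macrophages in the Cebpa values was not tested.

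Elf5, which marks distal epithelial tips during branching, had the largest difference of the 10 on the features that stood for the genes. It was 8.58, 8.39, 8.45 and 8.23 in the libraries labelled Fgf10+/-, against 9.36, 9.39, 9.54 and 9.09 in the wild-type libraries. This gave a difference of -0.93 (standard error 0.13) and a linear ratio of 0.52, and 0.96% of all genes lay at or below it. The window before the first of its 2 annotated starts is shown because of the size of that difference, and it held 1 match, to the ETS letters GGAAG.
Elf5 promoter, chr2:103411848-103412097, plus strand: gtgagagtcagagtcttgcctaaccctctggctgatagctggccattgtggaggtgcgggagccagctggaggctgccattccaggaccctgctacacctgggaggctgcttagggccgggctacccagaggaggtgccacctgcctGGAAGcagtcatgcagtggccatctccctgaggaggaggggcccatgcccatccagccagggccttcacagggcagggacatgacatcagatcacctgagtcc

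**Figure D2:**
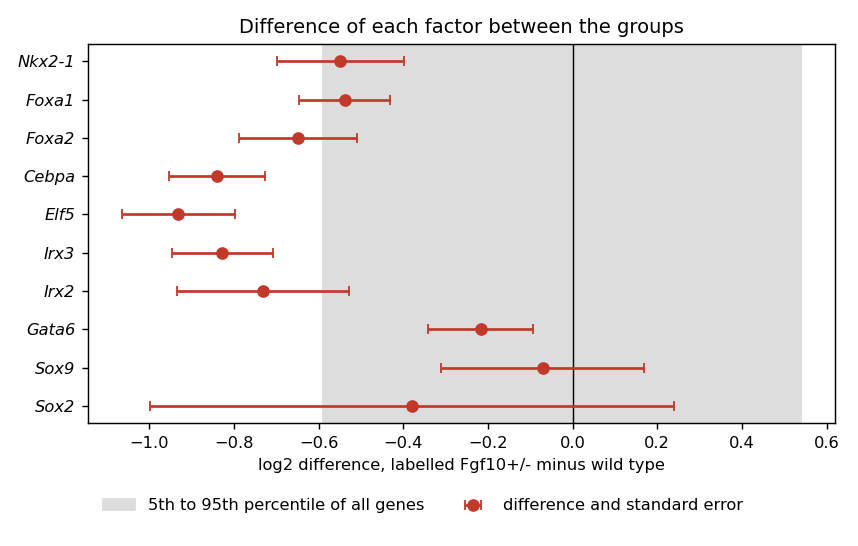
Log2 difference of each factor, libraries labelled Fgf10+/- minus wild type, with limma's moderated standard error. The grey band spans the 5th to the 95th percentile of all 20842 genes, from -0.59 to 0.54. Foxa2, Cebpa, Elf5, Irx3 and Irx2 lie below the band, and Sox2 has the widest error.

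The Iroquois factors pattern the lung along with other organs, and their genes lie in a pair of clusters, Irx3 with Irx5 and Irx6, and Irx2 with Irx1 and Irx4. Irx3 had 8.57, 8.73, 8.91 and 8.84 in the libraries labelled Fgf10+/-, against 9.51, 9.46, 9.71 and 9.69 in the wild-type libraries. The groups lay 0.55 apart, the widest gap of the 10 factors, and the difference was -0.83 with a standard error of 0.12. The window before its start held GGAAG at 3 places and none of the other letters searched.
Irx3 promoter, chr8:91801655-91801904, minus strand: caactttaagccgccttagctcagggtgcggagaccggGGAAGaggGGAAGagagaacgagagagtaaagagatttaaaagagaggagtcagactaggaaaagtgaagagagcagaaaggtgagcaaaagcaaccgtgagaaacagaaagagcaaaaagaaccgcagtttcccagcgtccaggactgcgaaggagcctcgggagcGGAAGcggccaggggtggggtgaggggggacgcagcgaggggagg

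Irx2 had 8.48, 7.64, 7.96 and 8.07 in the libraries labelled Fgf10+/-, against 8.89, 8.72, 9.02 and 8.44 in the wild-type libraries. The groups overlapped by 0.04, through replicate 1 of the first group and wild-type replicate 4. The difference was -0.73 with a standard error of 0.20, and leaving out that replicate 1 gave -0.88. Its second feature was near the floor, at 3.53 to 4.88 in that group and 3.54 to 4.57 in the wild-type libraries, and differed by 0.06. With both features averaged the Irx2 difference was -0.33.

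Neighbours of these 2 factors in their clusters were not all alike. Irx5 had 5.80, 5.84, 5.65 and 6.32 in the libraries labelled Fgf10+/-, against 7.19, 6.93, 6.95 and 7.26 in the wild-type libraries. Its difference of -1.18 exceeded that of Irx3, with a standard error of 0.17 and a limma adjusted p of 0.0767, which does not pass 0.05. Irx1, which was picked with its values in view, had a difference of -0.48 and overlapping groups (adjusted p = 0.361 in limma). Irx4 and Irx6, picked likewise, had means of 2.54 to 3.08 in either group, below the array median, so their differences cannot be read.

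Gata6 differed less. Its values were 9.02, 9.12, 8.80 and 8.86 in the libraries labelled Fgf10+/-, against 9.26, 9.33, 9.06 and 9.02 in the wild-type libraries. The groups overlapped by 0.10, and the difference was -0.22 (standard error 0.12). GATA6 is also made in heart muscle and in mesenchyme. Of 10 cardiac muscle markers 10 had a lower mean in the libraries labelled Fgf10+/-. Their median difference was -0.78, below that of the 10 factors, and the groups did not overlap for 5, or for 8 without wild-type replicate 4, against 4.40% and 7.68% of all genes. They had a mean deviation of -0.52 to -0.11 there and 0.09 to 0.64 in the wild-type libraries. Of 11 mesenchyme markers 9 had a higher mean, with a mean deviation of 0.00 to 0.20 in the libraries labelled Fgf10+/- and -0.24 to 0.07 in the wild-type libraries. Their part in the Gata6 values was not tested.

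The 2 SOX factors were dim. Sox9 had 10 features, and the one that stood for it had 5.38, 5.16, 5.41 and 5.28 in the libraries labelled Fgf10+/-, against 4.63, 5.69, 5.68 and 5.52 in the wild-type libraries. Its difference was -0.07 with a standard error of 0.24, and 0.03 without wild-type replicate 2, so its direction is not settled by this feature.

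All 10 Sox9 features had a lower mean in the libraries labelled Fgf10+/-, by -0.96 to -0.07, and the groups did not overlap in 2 of them. Averaged over the 10, Sox9 was at 5.07, 4.53, 4.44 and 4.52 in the libraries labelled Fgf10+/-, against 5.09, 5.23, 5.22 and 5.27 in the wild-type libraries. The difference of that mean was -0.56, and the groups lay only just apart, replicate 1 labelled Fgf10+/- at 5.07 against wild-type replicate 1 at 5.09. Reading 1 feature or all 10 therefore gave very different sizes for Sox9. SOX9 is also the master factor of cartilage, and wild-type replicate 4, with its cartilage markers at 3.42, was at 5.27 on that mean, where the other wild-type libraries had 5.09 to 5.23.

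**Figure D3:**
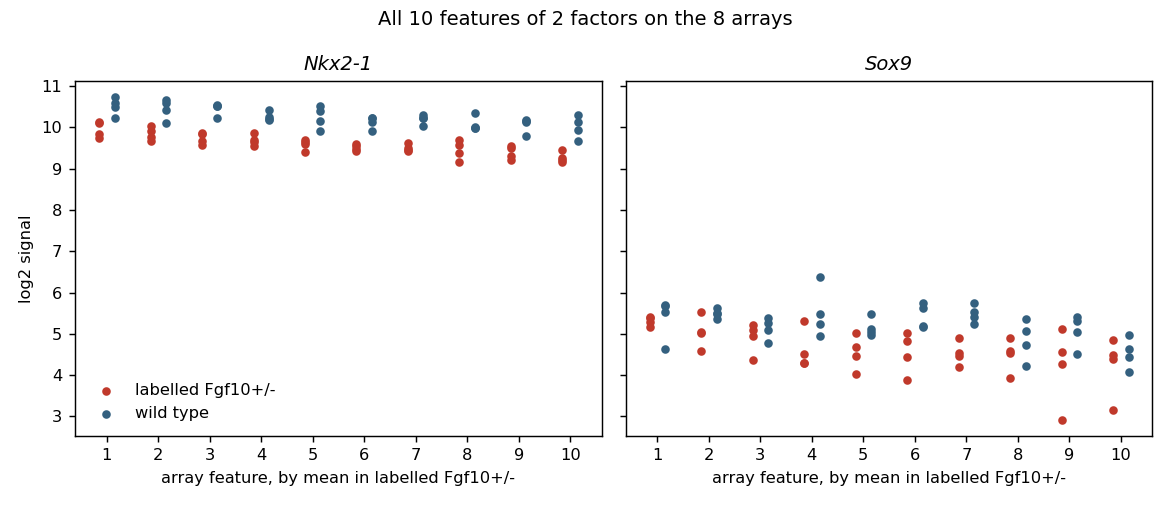
Log2 signal of each of the 10 array features of Nkx2-1 (left) and Sox9 (right) in the 4 libraries labelled Fgf10+/- (red) and the 4 wild-type libraries (blue), with features ordered by their mean in the first group. For Nkx2-1 the groups are apart on all 10 features, and for Sox9 on 2.

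Sox2, the factor of the conducting airways, had a single feature, at 4.92, 2.79, 5.08 and 4.14 in the libraries labelled Fgf10+/-, against 4.47, 3.51, 5.86 and 4.61 in the wild-type libraries. Values in both groups reached down to the array median. The difference was -0.38 (standard error 0.62), and leaving out replicate 2 of the libraries labelled Fgf10+/- turned it to 0.10. No direction can be read for Sox2 from these arrays.

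The libraries did not keep one order across the 8 brighter factors, those whose mean lay above that of the median gene (all but Sox9 and Sox2). Wild-type replicate 4 was the lowest of its group for 5 of the 8 and the highest for 0. Wild-type replicate 3 was the highest for 4. Among the libraries labelled Fgf10+/-, replicate 2 was the lowest for 4 of the 8 and the highest for 2. For all 8 the difference between the group means exceeded the SD of both groups, which ran from 0.09 to 0.35 in the libraries labelled Fgf10+/- and from 0.07 to 0.25 in the wild-type libraries.

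Markers that all epithelial cells share moved with the factors. Of 15 such markers measured, 15 had a lower mean in the libraries labelled Fgf10+/-, with a median of -0.46, and the groups did not overlap for 11, against 4.40% of all genes. The best known of them were named with their values in view. Epcam, a surface protein of epithelium, averaged 7.12 ± 0.13 in the libraries labelled Fgf10+/- and 7.58 ± 0.18 in the wild-type libraries (SD, n = 4 each), and Cdh1, the junction protein E-cadherin, averaged 10.08 ± 0.04 in the libraries labelled Fgf10+/- and 10.36 ± 0.06 in wild type. Neither passed, with adjusted p of 0.256 and 0.302 in limma.

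Set beside these markers, the 8 brighter factors had a mean difference of -0.66 and the markers one of -0.49, which leaves -0.17. By library, the factors minus the markers stood at -0.16, -0.13, -0.21 and 0.16 in replicates 1 to 4 of the libraries labelled Fgf10+/-, against 0.08, 0.06, 0.08 and 0.13 in the wild-type libraries. The groups overlapped through replicate 4 of the first group, whose epithelial markers were the lowest of all, at -0.51. Of the 15 markers 13 were brighter than the median gene. The dimmer ones, Cldn4 and Ap1m2, were at 1.98 and 3.55 in that library. In replicates 1 to 3 of its group they were at 2.95 to 4.32 and 5.55 to 5.78. The -0.51 leans on them, and no mean deviation was taken without them, so the overlap is not settled. Relative to the markers Elf5 was at -0.44, Cebpa at -0.35, Irx3 at -0.34, Irx2 at -0.24 and Foxa2 at -0.16. Nkx2-1 was at -0.06, Foxa1 at -0.05 and Gata6 at 0.27. The Nkx2-1 value rests on its feature with the smallest difference, -0.55, while the mean of its 10 features differed by -0.64. Of the 10 factors only Elf5 kept the groups apart relative to the mean of all 15 markers. This count was not repeated without Cldn4 and Ap1m2.

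**Figure D4:**
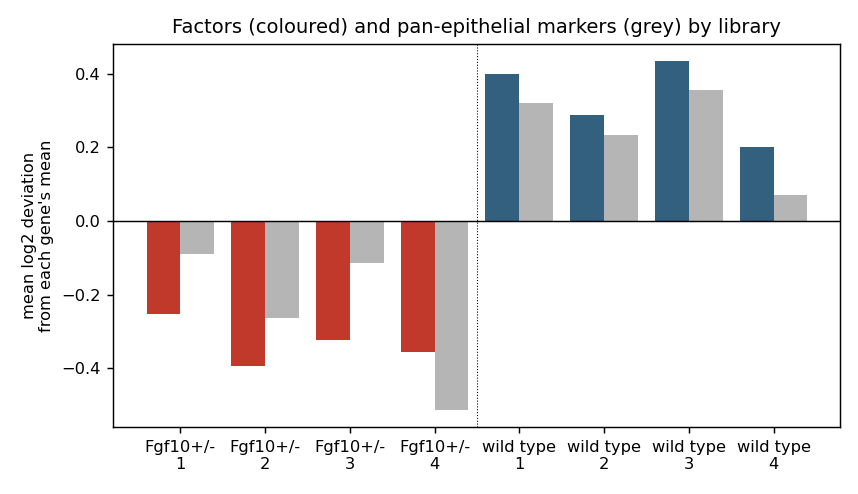
Mean log2 deviation of the 8 brighter factors (coloured bars) and of 15 pan-epithelial markers (grey bars) from each gene's mean over the 8 arrays, by library. Both are below 0 in all 4 libraries labelled Fgf10+/- and above 0 in all 4 wild-type libraries, and replicate 4 of that first group is its one library where the markers are lower than the factors. The markers include Cldn4 and Ap1m2, which are dimmer than the median gene and low in that library.

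Genes related to the 10 factors were read from 5 lists, which name 86 genes, 84 of them measured. With limma and Benjamini-Hochberg adjustment over all 20842 genes, 0 of the 84 passed an adjusted p of 0.05, where 0% of all genes did. At an unadjusted p under 0.05 there were 24 lower and 1 higher among the 84, while 6.29% of all genes were lower and 4.74% higher. With limma's variance trend and robust settings 14 of the 84 passed, all lower, among them Etv5, Irx5, Napsa and Lpcat1, while 414 of all 20842 genes passed. The lists were drawn up with earlier results of these data known, so the counts are a description.

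Distal genes known to be driven by NKX2-1, FOXA or CEBPA came closest to the factors themselves. Of 14 measured, 14 had a lower mean in the libraries labelled Fgf10+/-, with a median of -0.53, and 12 did once each array was centred on its median. The groups did not overlap for 8, against 4.40% of all genes, or for 10 without wild-type replicate 4, against 7.68%. Napsa, a protease that cleaves the precursor of surfactant protein B, averaged 10.61 ± 0.15 in the libraries labelled Fgf10+/- and 11.54 ± 0.08 in the wild-type libraries. Lpcat1, which makes surfactant phosphatidylcholine, averaged 7.49 ± 0.07 in the libraries labelled Fgf10+/- and 8.35 ± 0.18 in wild type (SD, n = 4 each). Their differences of -0.93 and -0.86 had an adjusted p of 0.0767 each in limma, which does not pass.

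The surfactant genes of that list, named here with their values in view, were uneven. Sftpa1, for surfactant protein A, averaged 13.24 ± 0.21 in the libraries labelled Fgf10+/- and 13.91 ± 0.15 in the wild-type libraries. Abca3, the lipid transporter of lamellar bodies, averaged 12.15 ± 0.15 in the libraries labelled Fgf10+/- and 12.88 ± 0.07 in wild type (SD, n = 4 each). For both the groups were apart, yet neither passed (adjusted p of 0.169 and 0.0878 in limma). Sftpb, for surfactant protein B, differed by -0.28. Sftpc, for surfactant protein C, averaged 15.98 in both groups, at the top of the scale, so no difference could show. The airway gene Scgb1a1 lay near that top too, at 15.93 in the libraries labelled Fgf10+/- and 15.96 in wild type. Ager, a marker of flat alveolar type 1 cells, differed by -0.55 with the groups apart, and the lipid synthesis gene Scd1 by -0.00.

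Airway genes downstream of SOX2, NKX2-1 or FOXA had a median of -0.27 over 10 measured, with 8 lower. Leaving out replicate 1 of the libraries labelled Fgf10+/- brought that median to -0.16, and leaving out both replicate 3 of the libraries labelled Fgf10+/- and wild-type replicate 4 brought it to -0.46. The groups did not overlap for 2 of the 10, against 4.40% of all genes, and for 4 without wild-type replicate 4, against 7.68%. The 2 were Cyp2f2, a cytochrome P450 of club cells (-0.42, adjusted p = 0.244 in limma), and Aldh1a1, a retinaldehyde dehydrogenase (-0.45, adjusted p = 0.265 in limma). Genes of the SOX9 distal tip programme had a median of -0.06 over 11, with 7 lower. That median lay between -0.17, without wild-type replicate 4, and -0.03, without replicate 3 labelled Fgf10+/- or wild-type replicate 2, when single libraries were left out. Etv5, an ETS factor that FGF signalling induces, was at 11.17, 11.01, 10.98 and 11.12 in the libraries labelled Fgf10+/-, against 11.91, 11.86, 11.71 and 11.79 in the wild-type libraries (difference -0.74, adjusted p = 0.0767 in limma). The receptor gene Fgfr2 differed by -0.58 (adjusted p = 0.318 in limma). The other 4 genes of that list had a higher mean, among them Etv4, also an ETS factor. It differed by 0.04 (adjusted p = 0.959 in limma).

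Other transcription factors of lung epithelium were mixed. Of 32 measured, 20 had a lower and 12 a higher mean, with a median of -0.24. Leaving out replicate 3 of the libraries labelled Fgf10+/- brought the median to -0.12. The groups did not overlap for 6 that were lower and 1 that was higher, against 4.40% and 2.99% of all genes. Besides Etv5, the smallest p belonged to Grhl2, a grainyhead factor that maintains epithelial junctions, which differed by -0.52 (adjusted p = 0.177 in limma), or by -0.23 with all its features averaged. Relatives in the factors' own families had a median of -0.09 over 29, with 17 lower. Leaving out single libraries moved it to between -0.15, without replicate 1 labelled Fgf10+/-, and -0.01, without replicate 2 of that group. It was -0.03 without wild-type replicate 2, -0.04 without wild-type replicate 4 and -0.13 without wild-type replicate 1. Only 9 of the 29 were brighter than the median gene. After Irx5 the smallest p was that of Nkx2-5, a heart factor, which averaged 2.83 ± 0.48 in the libraries labelled Fgf10+/- and 3.91 ± 0.43 in the wild-type libraries (SD, n = 4 each), both near the floor (adjusted p = 0.238 in limma). Of 5 thyroid markers 0 were above the median gene, and the part of thyroid tissue in the Nkx2-1 values was not tested.

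**Figure D5:**
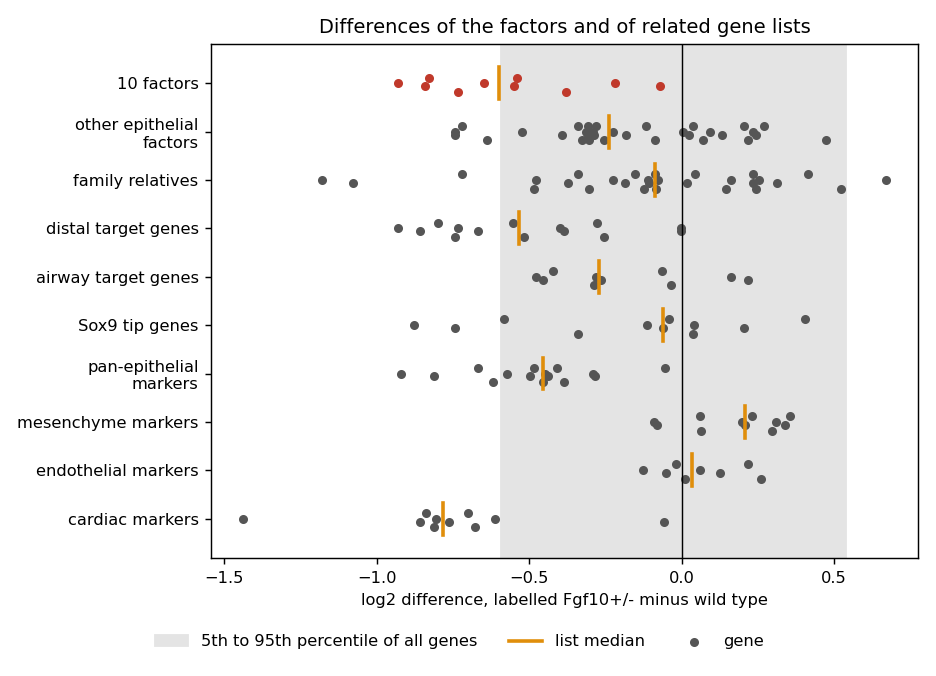
Log2 differences, libraries labelled Fgf10+/- minus wild type, of the 10 factors (red), of 5 lists of related genes and of markers of epithelium, mesenchyme, endothelium and heart muscle (grey points, 1 per gene). Orange bars are list medians and the grey band spans the 5th to the 95th percentile of all genes. The medians are -0.60 for the 10 factors, -0.53 for distal target genes, -0.46 for pan-epithelial markers, 0.21 for mesenchyme markers, 0.04 for endothelial markers and -0.78 for cardiac markers.

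The genes whose pattern over the 8 arrays was most like the mean of the 10 factors were sought among 10413 genes brighter than the median gene. The closest was Zdhhc3, a palmitoyltransferase, with a Pearson r of 0.992, and 0.967 once each group's mean was removed. That mean follows Sox2 in large part, the dim factor with the widest spread, whose own r with it was 0.946 within groups. Zdhhc3 was followed by Plekhd1 (r = 0.976), the axonemal dynein gene Dnah6 (r = 0.976), the secretoglobin gene Scgb1c1 (r = 0.974) and Ssx2ip (r = 0.966). All 5 had a lower mean in the libraries labelled Fgf10+/-, by -0.36 for Ssx2ip to -1.47 for Scgb1c1. The profile they were matched to is itself lower there, so this direction came with the search. Against the mean of the 8 brighter factors, a choice made after seeing the data, these 5 had an r of 0.949 to 0.973, and 0 of them were among the closest 5. The closest there were Gm6636 (r = 0.993), the lactate dehydrogenase gene Ldhb (r = 0.985), Enho (r = 0.985), Tmem125 (r = 0.983) and Sfta2, a surfactant-associated gene (r = 0.980). The closest to Nkx2-1 alone were Wwc1, a scaffold of the Hippo pathway (r = 0.993), the potassium channel gene Kcnj15 (r = 0.981) and Txnrd3, a thioredoxin reductase (r = 0.979). These values describe 8 arrays that share 1 normalization, and they are the highest of all the genes searched.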

How the data were processed

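Per the labels' protocols, miRNeasy columns gave the total RNA of 8 mouse lungs, and Agilent's Low-Input QuickAmp chemistry made the Cy3-labelled target. The deposited table holds log2 signals of 62976 features, with the scale read from the values (1.51 to 15.99). The authors had quantile normalized them, as the values show, since sorted values differed by at most 0.0042 between arrays. The submitters' processing notes name limma as their tool. The sources used here do not state how background and spot flags were handled. The 120 features with a blank were left out. Symbols of 31465 named features came from the platform annotation, updated through RefSeq accessions (29050 matched, 2933 changed). The feature with the highest mean over the 8 arrays stood for each of 20842 genes.

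Groups came from the titles. Differences were fitted with limma 3.58.1 in R 4.3.3 (lmFit on group, eBayes, two-sided, Benjamini-Hochberg over all genes, threshold 0.05), and the fit was tested on simulated data. The number of arrays limits the precision. No litter, sex, slide or scan could be used as a batch, and p-values measure only the spread between these samples. The members and lists were chosen with earlier results of these data known. Genes named beyond the 10 are, per list, those past the threshold or otherwise the 2 with the smallest p, plus the 5 and 3 most alike in pattern. Irx1, Irx4, Irx6, Etv4, Epcam, Cdh1, Cldn4, Ap1m2, Sftpa1, Sftpb, Sftpc, Abca3, Ager, Scd1, Scgb1a1 and the genes closest to the 8 brighter factors were named outside this rule, with their values in view. Alternatives were other feature rules, centring, normalization, filters on dim genes, variance models, a replicate block and leaving out libraries. Promoter windows are RefSeq's, with none shown for Gata6, which was left out of the search, or for Sox9, for which none was found. Figures were drawn with matplotlib 3.10.9.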

Additional observations from a re-analysis of the deposited data

Results flagged for a closer look

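In groups of 4, a library was marked when its gap to the nearest other library, as a share of the group's range, exceeded Dixon's critical value. Of 102 groups examined 4 were marked, and chance marks about 1 in 20. Wild-type replicate 1 had a Sox9 signal of 4.63 on the feature that stood for the gene, where the other wild-type libraries had 5.52 to 5.69. Averaged over all 10 Sox9 features the same library was at 5.09. Wild-type replicate 4 had a Kcnj15 signal of 6.82, against 7.33 to 7.41 in the other wild-type libraries. The same replicate had a mean deviation of 3.42 for cartilage markers and of 2.82 for skeletal muscle markers, where the other wild-type libraries had -0.55 to -0.44 and -0.42 to -0.24.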

How the results depend on the processing

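The median difference of the factors moved by less than 0.16 under every alternative run. That value is the SD within groups of the mean deviation of the 10 factors by library. The median was -0.71 to -0.58 under the changes of feature, scaling, filter, variance model and library pair. It was -0.72 to -0.55 with each replicate left out in turn. The filter at the 50th percentile left 8 factors, with a median of -0.69. With the replicate block, which changed no call, the median was -0.60. Deviations of same-numbered libraries correlated at 0.33, -0.00, 0.06 and 0.33, and replicates 2 and 3 labelled Fgf10+/- correlated best with wild-type replicate 4, so the numbers were not taken as pairs. The count of genes past an adjusted p of 0.05 was 0 in the main setting and depended on how dim genes and variances were treated. It was 38 of 15631 without genes below the 25th percentile, and 288 of 10421 without those below the 50th. It was 414 of 20842 with limma's robust fit and a trend in the variance, and 3 with array weights. With each replicate left out it was 0 to 1, the 1 coming without wild-type replicate 4. Among the genes of the 5 related lists the same count was 5 of 74, 12 of 50 and 14 of 84 in the first 3 of these settings, all lower. It was 0 elsewhere, also with each replicate left out (0 to 0). Sox9 and Sox2 do not pass the filter at the 50th percentile. Of the single factors, Foxa2 (-0.85), Irx2 (-0.33) and Sox9 (-0.56) moved by more than their spread when features were averaged, and Sox9 (0.03) and Sox2 (0.10) turned positive in 2 of 17 alternatives each. The cause of these changes was not tested. Signals near the array median of 3.47 limit what can be read for Sox2, Irx4, Irx6 and Nkx2-5. Sox9, at 4.63 to 5.69, was dimmer than the median gene.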
